A study of Mus musculus with 4 samples.

Results

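The cluster of miR-132 and miR-212 comprises a pair of neighbouring microRNA (miRNA) hairpins, each of which gives a 5p and a 3p mature arm. Its members were taken by name, as both arms of miR-132 and both arms of miR-212, and all 4 were found among the listed entries of each file (1152 in each). The data are small RNA libraries from aortas of 12-week wild type C57BL/6 mice, a common inbred strain, with 2 libraries labelled CKD (chronic kidney disease) and 2 labelled Sham. Each library was made from a pool of 4 samples, so its value is an average over that pool. In the model, kidney tissue was removed in operations 1 week apart, after which the mice received a 2% phosphate diet and water with 0.45% NaCl for 4 weeks, to induce vascular calcification. The labels word this treatment identically for CKD and Sham, so the operation and diet of the Sham mice are unknown here. Nothing in the labels says whether the pools of a group came from separate animals, so the p-values reflect library-to-library spread alone, which may be technical.

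Transcription of the locus is known to be driven by CREB, a transcription factor switched on by calcium, cAMP and growth factor signals, and to be induced by activity in neurons. In the vessel wall, background work has linked it to angiotensin II signalling in rat smooth muscle cells and to angiogenic growth in human endothelial cells, where miR-132 represses the Ras inhibitor RASA1. In mouse heart muscle both miRNAs are known to repress the transcription factor Foxo3. CREB itself was not measured in these libraries.

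The hairpins lie on the plus strand of mouse chromosome 11 in GRCm38, the build named in the submitters' processing notes. Mir212 spans chr11:75173388-75173478 and Mir132 spans chr11:75173682-75173747, with 203 bases between them. GENCODE M21 places both inside intron 1 of the non-coding transcript 1700016P03Rik, from 75172598 to 75173977, with no exon of that gene over either hairpin. The hairpins are shown because the results turn on the balance between their arms. They come from RefSeq (GRCm38.p6), are written 5′ to 3′, and have the mature 5p and then the 3p arm in capitals.

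Mir212: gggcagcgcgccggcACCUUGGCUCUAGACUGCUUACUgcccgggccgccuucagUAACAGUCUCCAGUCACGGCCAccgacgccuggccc
Mir132: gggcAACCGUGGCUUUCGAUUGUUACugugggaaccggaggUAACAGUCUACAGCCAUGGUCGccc

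The mature arms are shown with their seed, bases 2 to 8, in capitals, since the seed largely sets which mRNAs a miRNA pairs with.

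miR-132-3p: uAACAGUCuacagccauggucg
miR-212-3p: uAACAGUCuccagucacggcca
miR-132-5p: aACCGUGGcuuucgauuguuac
miR-212-5p: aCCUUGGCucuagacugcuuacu

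The 3p arms carry the same seed, AACAGUC, and no other mature name among the 1679 in the RefSeq table has it. Over their 22 bases they match at 17 and mismatch at 5, the first at A10C (miR-132-3p base, position counted from 1 at the 5′ end, miR-212-3p base). The 5p arms have seeds that no other listed mature miRNA shares, including each other, and match at 9 of the 22 positions compared. The mature arms are 22 or 23 bases long, so read numbers were compared between them without scaling by length. Adaptor ligation is known to favour some sequences, which limits any comparison of levels between arms and leaves a comparison of 1 arm between libraries less exposed to it.

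The libraries held between 16658810 and 17532748 reads of listed entries, so 3 reads corresponded to between 0.171 and 0.180 CPM (reads per 1000000 reads of listed entries). Across them, miR-143-3p, the main smooth muscle miRNA, held 41.1% and 40.8% of reads in the CKD libraries and 79.8% and 72.5% in the Sham libraries. CPM values are shares of a fixed total, and most other entries were higher in CKD on this deposited scale. The median difference over 479 tested entries was 1.34 on the log2(CPM + 1) scale, a 2.53-fold shift. The cluster was therefore also compared after scaling by a trimmed mean of M-values (TMM). This removes what most entries share, and the median was then 0.00. Adding 1 CPM understates the change of low entries on either scale.

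All 4 arms were higher in CKD than in Sham on the deposited scale. Against the median shift of 1.34, miR-132-5p and both arms of miR-212 rose by 2.17 to 2.30 in log2(CPM + 1). miR-132-3p rose less, by 1.85, where the upper quartile of all entries was 1.69. Among the 265 entries with a mean of at least 10 CPM, where miR-132-3p lay, the upper quartile was 1.81. Among the 214 entries from 1 to 10 CPM, where the other arms lay, it was 1.42. After TMM scaling the means of miR-132-5p differed 2.33-fold, against 2.69-fold and 2.80-fold for the 3p and 5p arms of miR-212. By limma miR-132-5p was the only arm that passed the adjusted threshold, as 7.72% of all entries did. That call rested on all 4 libraries. Within the miR-132 hairpin the share of 5p reads was larger in CKD, and among the 3p arms the share of miR-212 was larger. These shares are taken within a library, so library scaling does not enter them.

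**Figure D1:**
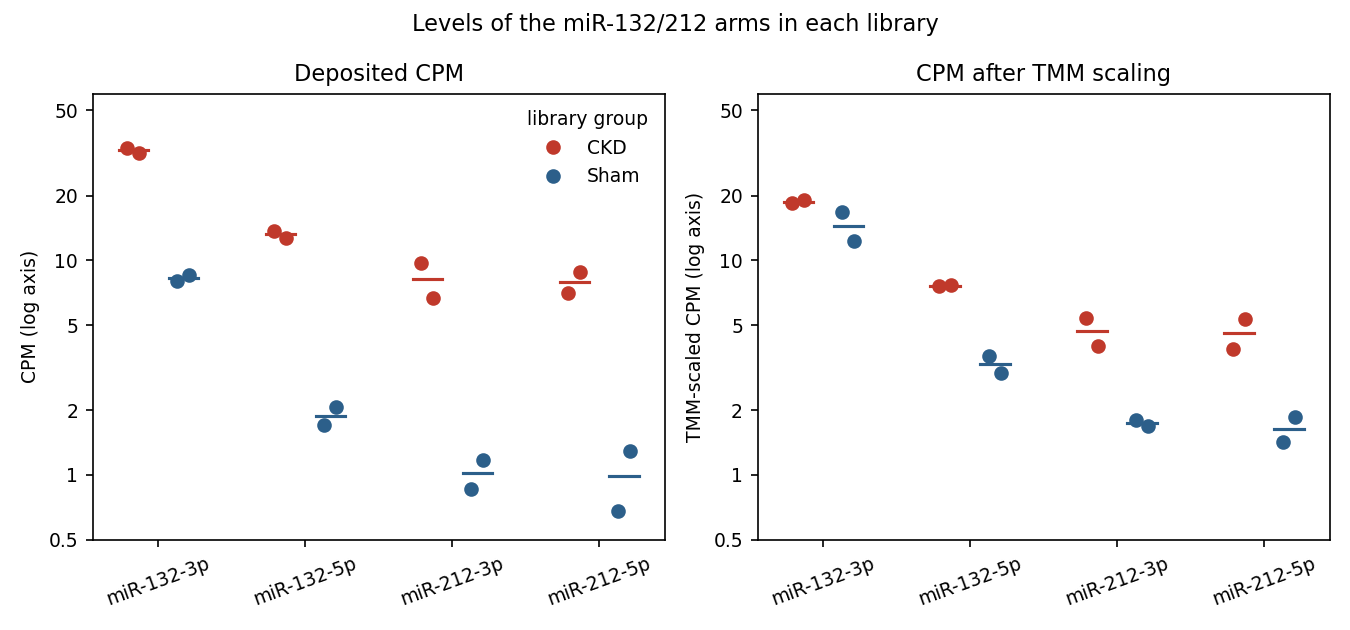
Level of each arm in the 2 CKD (red) and 2 Sham (blue) libraries, as deposited CPM (left) and as CPM after TMM scaling (right), on log axes; points are libraries and bars their mean. No arm overlaps between groups in either panel. Of all tested entries, 91.2% on the deposited scale and 28% after scaling also have both CKD libraries above both Sham libraries. After scaling the gap of miR-132-3p is the narrowest, with 18.4 and 19.1 in CKD and 16.8 and 12.3 in Sham.

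miR-132-3p, the arm known as the main product of its hairpin, was the most abundant of the cluster. It had 33.4 and 31.8 CPM in the CKD libraries (585 and 529 reads), against 8.05 and 8.53 CPM in the Sham libraries (141 and 144 reads). The groups did not overlap, and the CKD mean of 32.6 ± 1.15 CPM (SD, n = 2) was 3.93-fold that of Sham, 8.29 ± 0.339 CPM (SD, n = 2). By level it ranked 192 and 191 among all entries in the CKD libraries and 205 and 236 in the Sham libraries.

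On the deposited scale miR-132-3p rose by 1.85 in log2(CPM + 1) (SE 0.31, limma adjusted p = 9.9e-04). There 402 of 479 entries passed the adjusted threshold of 0.05 (83.9%), 82.9% being higher, so a call on this scale is close to the rule rather than the exception. Without CKD 1, which left 1 CKD library, the call for miR-132-3p was lost at a difference of 1.82. Most of the calls over all entries were lost in that fit too. After TMM scaling, where 7.72% of entries passed (1.88% higher and 5.85% lower), its difference was 0.36 (SE 0.19, limma adjusted p = 0.3), which did not pass, and it ranked 105 among the 479. TMM-scaled values were 18.4 and 19.1 in CKD and 16.8 and 12.3 in Sham, so the gap between the groups was smaller than the gap between the Sham libraries. Without Sham 1 the TMM difference was 0.56 and without Sham 2 it was 0.16, and neither passed (limma adjusted p = 0.23 and 0.57).

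miR-132-5p, the other strand of the same hairpin, had 13.7 and 12.7 CPM in the CKD libraries (452 reads in all), against 1.71 and 2.07 CPM in the Sham libraries (65 reads in all). CKD libraries lay close together and far above both Sham libraries. The mean of 13.2 ± 0.679 CPM (SD, n = 2) in CKD was 6.99-fold that of 1.89 ± 0.255 CPM (SD, n = 2) in Sham. Exact Poisson 95% intervals, which cover counting error only, ran from 11.1 CPM at the lowest in CKD to 2.88 CPM at the highest in Sham, and so did not meet.

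In log2(CPM + 1) miR-132-5p rose by 2.30 as deposited (SE 0.28, limma adjusted p = 2.5e-04), a rank of 19 among 479. After TMM scaling it rose by 1.015 (SE 0.15, limma adjusted p = 0.038), with scaled values of 7.57 and 7.67 in CKD and 3.57 and 2.98 in Sham, a 2.33-fold difference of the means. That call rested on all 4 libraries: leaving out any one gave limma adjusted p from 0.12 to 0.18, at differences from 0.94 to 1.14. With the replicate number as a block the adjusted p was 0.077, and edgeR's quasi-likelihood test on recovered reads gave an adjusted p of 0.055 at a difference of 1.22, where 6.47% of entries were called (1.67% higher). On the same reads DESeq2 (adjusted p = 0.032) and limma voom (adjusted p = 0.048) called it, against 15.7% of entries called by DESeq2 (5.85% higher) and 7.1% by voom (1.46% higher).

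miR-212-3p, which shares the seed of miR-132-3p, was scarcer. It had 9.75 and 6.66 CPM in the CKD libraries (171 and 111 reads), against 0.86 and 1.18 CPM in the Sham libraries (15 and 20 reads). The groups were far apart, although the CKD libraries also differed from each other. The mean was 8.21 ± 2.18 CPM (SD, n = 2) in CKD, 8.04-fold that of 1.020 ± 0.226 CPM (SD, n = 2) in Sham. As deposited it rose by 2.17 in log2(CPM + 1) (SE 0.31, limma adjusted p = 6.0e-04). After TMM scaling its difference was 1.04 (SE 0.19, limma adjusted p = 0.051), with scaled values of 5.39 and 4.01 in CKD and 1.80 and 1.70 in Sham.

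miR-212-5p had 7.02 and 8.82 CPM in the CKD libraries (123 and 147 reads), against 0.68 and 1.30 CPM in the Sham libraries (12 and 22 reads). CKD libraries were again several-fold above Sham, and the order of the CKD libraries was the reverse of that for miR-212-3p. The mean was 7.92 ± 1.27 CPM (SD, n = 2) in CKD, 8-fold that of 0.99 ± 0.438 CPM (SD, n = 2) in Sham. As deposited it rose by 2.17 (SE 0.31, limma adjusted p = 6.0e-04), and after TMM scaling its difference was 1.07 (SE 0.22, limma adjusted p = 0.059).

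Both miR-212 arms thus lay just outside the threshold after TMM scaling. With library totals taken without miR-143-3p, where 2.92% of entries were called higher, both passed (limma adjusted p = 0.046 for miR-212-3p and 0.04 for miR-212-5p). Those totals left part of the shift shared by most entries in place, as given below. All 4 arms met the filter of a mean CPM of at least 1, but miR-212-5p, whose Sham mean was below 1 CPM, met it only through the CKD libraries, so its being tested already required a higher value there. Both CKD libraries exceeded both Sham libraries for each arm, as they did for 91.2% of all tested entries on the deposited scale and 28% after TMM scaling. In bulk tissue, more cells of a type that makes the cluster and more of the cluster per cell cannot be told apart.

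The arms were also set against all reads other than miR-143-3p. Per 1000000 such reads miR-132-3p had 56.7 and 53.6 in CKD and 39.9 and 31.0 in Sham, a 1.56-fold difference of means. miR-132-5p had 23.3 and 21.5 in CKD and 8.47 and 7.53 in Sham, a 2.80-fold difference. The miR-212 arms differed by 3.25-fold (3p) and 3.31-fold (5p). Library factors for these totals were 1.58 and 1.59 in CKD and 0.541 and 0.737 in Sham. With TMM they were 1.81 and 1.66 in CKD and 0.479 and 0.696 in Sham, a wider gap. A shift shared by most entries thus remains in these folds. Within a library this scaling multiplies every arm by 1 factor, so it bears on the size of the differences and not on how the arms compare with each other.

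**Figure D2:**
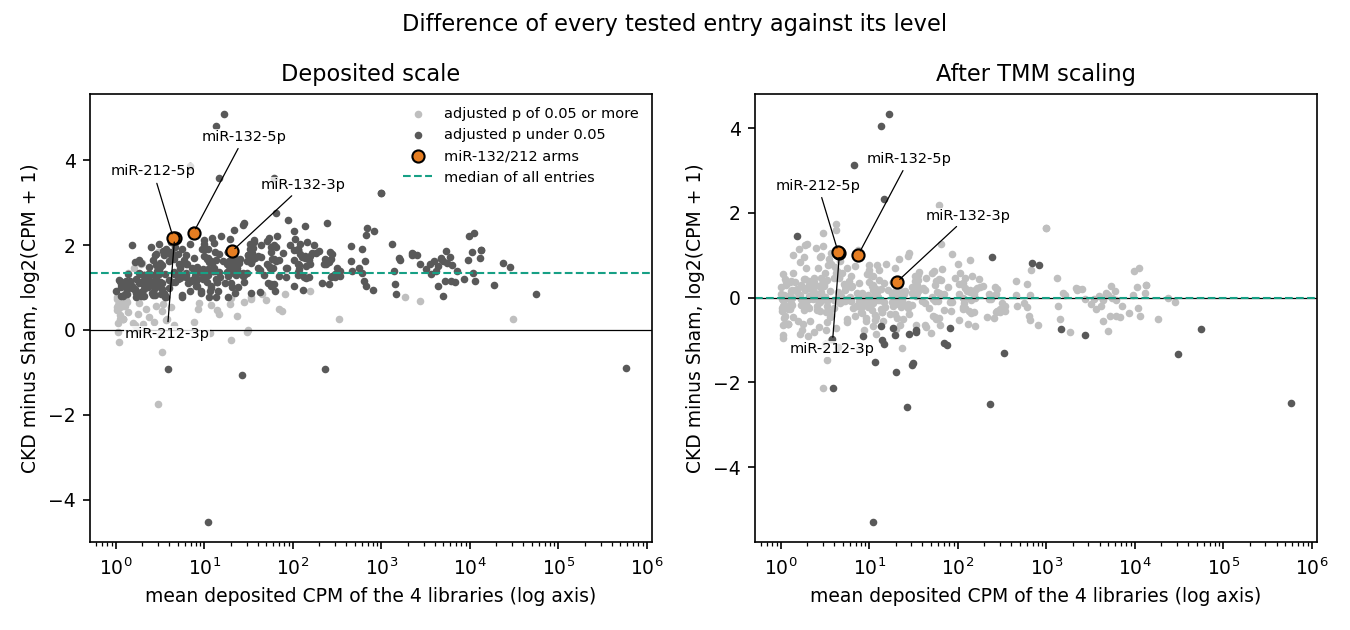
CKD minus Sham difference in log2(CPM + 1) of each of the 479 tested entries against its mean deposited CPM (log axis), on the deposited scale (left) and after TMM scaling (right); dark points passed the adjusted threshold of 0.05, and the dashed line is the median of all entries. On the left the cluster's arms (orange) sit from 1.85 to 2.30 against a median of 1.34, and on the right from 0.36 to 1.07 against a median of 0.00.

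The pool of the 3p seed AACAGUC, which the 3p arms form together, was 43.1 and 38.4 CPM in CKD and 8.91 and 9.71 CPM in Sham. After TMM scaling it was 23.8 and 23.1 in CKD and 18.6 and 13.96 in Sham, a 1.44-fold difference of means. The 5p arms together came to 11.5 and 13.0 in CKD and 4.99 and 4.84 in Sham after TMM scaling, a 2.48-fold difference. miR-132-3p, the arm with the smallest difference, was the larger part of the seed pool in every library.

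The make-up of the cluster differed between groups. miR-132-3p held 52.3% and 53.0% of the cluster's reads in the CKD libraries, against 71.2% and 65.2% in the Sham libraries. miR-132-5p held 21.4% and 21.2% in CKD and 15.2% and 15.8% in Sham. miR-212-3p held 15.3% and 11.1% in CKD and 7.58% and 9.05% in Sham, and miR-212-5p held 10.99% and 14.7% in CKD and 6.06% and 9.95% in Sham. For each of the 4 arms the groups did not overlap. Non-overlap was common among ratios within a library, as 60% of 130 hairpins showed it for 5p to 3p (reads plus 0.5). The shares of the 4 arms also sum to a fixed total within a library. They rest on 198 and 221 reads in Sham, against 1119 and 999 in CKD.

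Within the miR-132 hairpin, the 5p arm made up 29.1% and 28.6% of reads in the CKD libraries, against 17.5% and 19.6% in the Sham libraries. The Wilson 95% intervals, which cover counting error only, were 26.1% to 32.3% and 25.5% to 32.0% in CKD, and 12.6% to 23.9% and 14.4% to 26.0% in Sham. The first CKD interval lay above both Sham intervals, by a narrow margin over Sham 2, while the second met that of Sham 2. As a ratio, 5p to 3p averaged 0.406 ± 0.00672 in CKD and 0.228 ± 0.0214 in Sham (SD, n = 2 each), a difference of 0.83 on the log2 scale with no pseudocount.

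A limma fit of log2((5p CPM + 1)/(3p CPM + 1)) over 130 hairpins put the miR-132 difference at 0.45 (SE 0.15, limma adjusted p = 0.067), which did not pass. In that fit 28.5% of hairpins passed, and 70% had groups that did not overlap, so a shifted arm ratio was common in these libraries. By size of difference miR-132 ranked 67 of 130. A pseudocount of 1 CPM weighs more on Sham, where low arms are near 1 CPM, so the fit was also made on recovered reads plus 0.5, an alternative chosen after the data were seen. There miR-132 differed by 0.82 (SE 0.16, limma adjusted p = 0.052), a rank of 24, with 6.92% of hairpins called and 60% not overlapping. With the replicate number as a block and a pseudocount of 1 CPM the adjusted p was 0.046 (limma), in a fit that called 63 of the 130 hairpins (48.5%).

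The miR-212 hairpin showed no such difference. Its 5p arm made up 41.8% and 57.0% of reads in the CKD libraries, and 44.4% and 52.4% in the Sham libraries, so the Sham values lay between those of CKD. The Wilson intervals in Sham, on 27 and 42 reads, ran from 27.6% to 62.7% and from 37.7% to 66.6%. The fitted difference was 0.00 (SE 0.29, limma adjusted p = 0.99), and the intervals are too wide to show a difference of the size seen for miR-132 at this depth. The 5p share of miR-212 thus ran from 41.8% to 57.0% over the libraries, whereas the 3p arm of miR-132 prevailed in each of them.

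**Figure D3:**
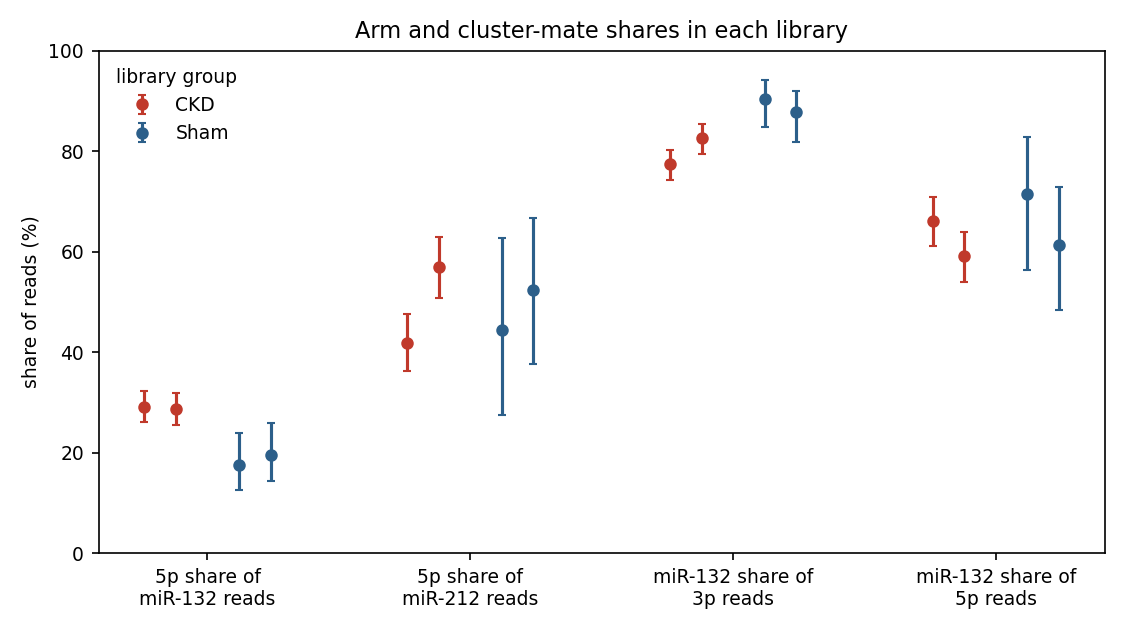
Share of reads, in percent, held by the 5p arm of each hairpin and by miR-132 within each arm, in the 2 CKD (red) and 2 Sham (blue) libraries; points are libraries and bars Wilson 95% intervals for counting error. The 5p share of miR-132 reads is 29.1% and 28.6% in CKD against 17.5% and 19.6% in Sham, and the miR-132 share of 3p reads is 77.4% and 82.7% in CKD against 90.4% and 87.8% in Sham.

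Between cluster mates, miR-132-3p outnumbered miR-212-3p by 3.42 and 4.77 to 1 in the CKD libraries, against 9.40 and 7.20 to 1 in the Sham libraries. The groups did not overlap, as was so for the 5p to 3p ratio of 60% of the 130 hairpins on reads plus 0.5. The difference was -1.03 on the log2 scale with no pseudocount and -0.32 with 1 CPM added to each arm. With 10 CPM added it turned to 0.50. The value with 1 CPM added was -0.11 without CKD 1 and -0.53 without CKD 2. miR-132-5p outnumbered miR-212-5p by 1.95 and 1.44 to 1 in CKD and by 2.50 and 1.59 to 1 in Sham. These groups overlapped, and the log2 difference was -0.25 with no pseudocount but 0.13 with 1 CPM added, so it has no settled direction.

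These 4 ratios were each compared with a two-sided exact permutation test over the 4 libraries, which cannot give a p below 0.333 with 2 against 2. It gave that smallest p for the miR-132 arm ratio and for the 3p mate ratio, 0.667 for the 5p mate ratio and 1 for the miR-212 arm ratio. Adjusted over the 4 ratios, the values were 0.667, 0.667, 0.889 and 1. The design therefore cannot call any single ratio by this test.

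**Figure D4:**
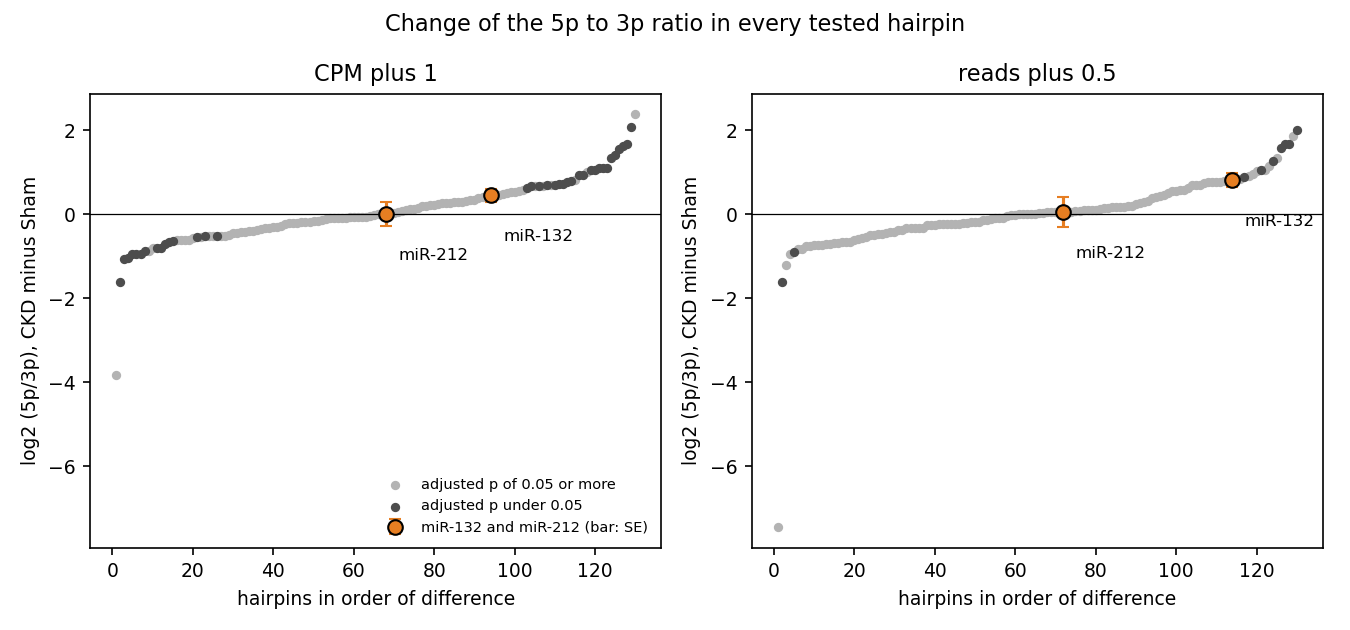
CKD minus Sham difference of the log2 5p to 3p ratio for each of 130 hairpins, ordered by size, with 1 CPM added to each arm (left) and with 0.5 reads added (right); dark points passed the adjusted threshold of 0.05, and bars on the orange points are SE. miR-132 sits at 0.45 and 0.82, inside a broad spread of hairpins, and miR-212 at 0.00 and 0.05.

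Patterns most like each arm were sought among annotated miRNAs with a mean CPM of at least 10, by Euclidean distance between centred log2(TMM-scaled CPM + 1) values over the 4 libraries. For miR-132-3p the 3 nearest of 252 were miR-674-3p (distance 0.206), miR-674-5p (0.219) and miR-99b-3p (0.225). For miR-132-5p the nearest of 253 were miR-224-5p (0.262), miR-29b-3p, a repressor of collagen genes (0.266), and miR-221-3p, a promoter of smooth muscle proliferation (0.308). For miR-212-3p they were miR-29b-3p (0.133), miR-29a-3p (0.349) and miR-139-5p (0.361), and for miR-212-5p the myeloid miR-223-3p (0.321), miR-224-5p (0.337) and miR-3968 (0.340). These distances describe 4 libraries and carry no test.

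Among themselves, miR-132-5p and miR-212-3p were the closest arms (distance 0.282), whereas miR-132-3p lay 0.671 from miR-132-5p, 0.782 from miR-212-3p and 0.884 from miR-212-5p. Each arm other than miR-132-3p was thus nearer to the others than to it. miR-132-3p was nearer to both arms of miR-674 than to any arm of its own cluster. Each other arm also had an outside miRNA nearer to it than any arm of the cluster. The outside candidates, 252 or 253, far outnumbered the cluster's arms, so this sets no arm apart.

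Other miRNAs linked to neuronal activity, from a list of 15 that included the dendritic regulator miR-134-5p and the neuronal miR-124-3p, were compared. As deposited 12 of 13 tested members were called higher, against 82.9% of all entries, and the median difference was 1.65 against 1.34 for all entries. After TMM scaling 9 lay above 0, against 49.9% of all entries, with a median of 0.26 against 0.00, and 1 passed, miR-485-5p, which fell by 0.98 (SE 0.16, limma adjusted p = 0.042) although its deposited difference was 0.25. miR-124-3p had 3.65 and 2.34 CPM in CKD and 0.23 and 0.36 CPM in Sham, a TMM difference of 0.85 (limma adjusted p = 0.11). With Sham values below 1 CPM, it met the filter only through the CKD libraries. So did miR-7b-5p, at 0.11 and 0.59 CPM in Sham. Both are among the members called higher as deposited and above 0 after TMM scaling, and being tested already required a higher value in CKD. miR-134-5p had 35.4 and 26.7 CPM in CKD and 6.11 and 9.60 CPM in Sham, a TMM difference of 0.39 (limma adjusted p = 0.21).

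A list of 14 miRNAs, drawn up as responsive to stimulation in vessel or heart, had 12 tested members. All of these were called higher as deposited (median difference 1.85), where 82.9% of all entries were. After TMM scaling 10 lay above 0, against 49.9% of all entries, the median was 0.27, and miR-221-3p alone passed, at 0.76 (SE 0.12, limma adjusted p = 0.039). miR-221-3p had 1358 and 1383 CPM in CKD and 223 and 325 CPM in Sham. The TMM differences of miR-132-5p and of the miR-212 arms, from 1.015 to 1.07, were above that of miR-221-3p, although these arms had far fewer reads.

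Markers of other cell types were also higher in CKD on the deposited scale, at counts near the 82.9% of all entries called higher there. The 5 neuronal markers, all of which also stand in the neuronal activity list, were all called higher there. Of these, miR-124-3p met the filter only through the CKD libraries. The summed level of the 5 was 163 and 195 CPM in CKD against 42.6 and 59.6 CPM in Sham. Of the 4 leukocyte markers 3 were called higher, and the 4 summed to 409 and 446 CPM in CKD and 75.9 and 219 CPM in Sham. The 2 endothelial markers were called higher, at 9989 and 9767 CPM in CKD and 2899 and 3411 CPM in Sham. So were the 4 red cell markers, at 1035 and 4804 CPM in CKD and 219 and 841 CPM in Sham.

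After TMM scaling none of the neuronal, leukocyte, endothelial, red cell, striated muscle, liver, epithelial or kidney tubule markers passed. Of the 4 smooth muscle markers 2 were called lower, miR-143-3p by 2.48 and miR-145a-5p by 0.73 (limma adjusted p = 0.012 and 0.044), although miR-145a-5p rose as deposited. The sum over the 4 was 485612 and 488708 CPM in CKD against 833695 and 774989 CPM in Sham. Most of that sum was miR-143-3p, at 411359 and 407824 CPM in CKD and 798183 and 725182 CPM in Sham. As deposited, miR-143-5p, miR-145a-5p and miR-145a-3p were each higher in both CKD libraries, as were 91.2% of all tested entries. The liver miRNA miR-122-5p had 161 and 56.0 CPM in CKD and 1.43 and 25.5 CPM in Sham, and the kidney tubule pair summed to 511 and 395 CPM in CKD and 97.1 and 139 CPM in Sham. Epithelial markers summed to 124 and 78.0 CPM in CKD and 32.0 and 25.4 CPM in Sham, and striated muscle markers to 1203 and 969 CPM in CKD and 508 and 620 CPM in Sham. No marker of any list was at 0 in all libraries, and the part of these cell types in the values of the cluster was not tested.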

How the data were processed

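Per the labels' protocols, Trizol RNA from 4 samples was pooled, size-selected on a gel to 18 to 30 nucleotides and ligated to 3′ and 5′ adaptors. The submitters' processing notes name Bowtie (no version) and GRCm38. No source used here gives the miRNA annotation or the handling of reads with several matches. The deposited values were read as CPM, since they sum to about 1000000 in each library. In 3 deposited files (unit other) a single column stacks all names and then all CPM values, which were paired by position. Whole reads were recovered for 100% of non-zero values within 0.005 CPM.

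limma 3.58.1 with a mean-variance trend was run on log2(CPM + 1) over 479 entries whose mean CPM reached 1, with a Benjamini-Hochberg adjusted p threshold of 0.05. It was run again after TMM scaling with factors from the recovered reads, since the group shift is large, and on arm ratios. edgeR 4.0.16 and DESeq2 1.42.0 were run on recovered reads. The fits were run on simulated counts in which 200 entries were changed, as many up as down. A shift of most entries, as in these libraries, was not set, so how the fits handle one was not tested. The members, both gene lists and the markers were chosen with earlier results of these data known. Named miRNAs were the arms, the 3 nearest to each, and from both gene lists those past the threshold after TMM scaling. miR-124-3p, miR-134-5p and miR-122-5p were named for their known roles after values were seen. Scaling, filters, pseudocounts, the trend, the replicate block and leaving out each library were alternatives. Libraries of a group differed beyond sampling noise (chi-square per degree of freedom 367 in CKD and 515 in Sham), so each counted as 1.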

Additional observations from a re-analysis of the deposited data

How the results depend on the processing

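On the deposited scale the 4 arms stayed higher in CKD under every alternative that tested them. Only miR-132-3p met the filter of a mean of 10 CPM. The 402 calls of 479 entries (83.9%) became 241 of 265 (90.9%) where only entries reaching a mean of 10 CPM were kept, and of the 479 entries 37 with TMM, 33 with median-of-ratios and 30 with upper-quartile scaling, and 28 with totals without miR-143-3p; without one library they lay between 137 and 384, of 458 to 498 tested. With TMM, median-of-ratios and upper-quartile scaling the deposited call was lost for miR-132-3p (0.36, 0.41 and 0.31). The same scalings lost the calls for miR-212-3p (1.04, 1.08 and 1.00) and miR-212-5p (1.07, 1.11 and 1.04). For miR-132-3p the call was also lost with totals without miR-143-3p (0.61). The deposited difference of miR-132-3p lay between 1.82 and 1.89 when any one library was left out. The miR-132-5p call held in every alternative to the deposited-scale fit that tested it. The highest limma adjusted p was 0.049, with upper-quartile scaling. It was not tested where a mean of 10 CPM was required.

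After TMM scaling the 37 calls (7.72%) went to 18 of 1152 (1.56%) with no filter, 10 with the replicate block, 75 with DESeq2 and between 0 and 7 without one library; limma made 0 calls without CKD 1 or without CKD 2, against 124 entries at an unadjusted p under 0.05 with all libraries. The miR-132-5p call was lost with no filter and with the replicate block (1.015 in both), edgeR (1.22) and between 0.94 and 1.14 without one library, and held with DESeq2 (adjusted p = 0.032) and limma voom (adjusted p = 0.048). miR-212-3p passed with a pseudocount of 0.1 (1.36) and with totals without miR-143-3p (1.23), and miR-212-5p passed with totals without miR-143-3p (1.26). The cause of these changes was not tested.

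Arm ratio calls, 37 of 130 (28.5%), became 64 of 327 (19.6%) with no filter and 22 of 55 (40%) where both arms had to reach a mean of 10 CPM; of the 130 hairpins they became 16 with a pseudocount of 0.1, 84 with 10, 63 with the replicate block, and 9 on recovered reads plus 0.5. Without one library they lay between 16 and 37, of 120 to 135 tested. The miR-132 arm ratio passed with a pseudocount of 0.1 (0.79) and with the replicate block (0.45), and turned to -0.25 with 10. The miR-212 arm ratio turned to -0.015 with 10 and lay between -0.39 and 0.39 without one library. The 3p mate ratio turned to 0.50 with 10 and lay between -0.53 and -0.11 without one library. The 5p mate ratio turned to -0.18 with 0.1 and to -0.25 on recovered reads, and lay between -0.070 and 0.32 without one library. Same-numbered libraries share only a number: their deviations correlated at 0.12 after TMM scaling and 0.50 for arm ratios. Depth limits the miR-212 arms most, at 12 to 22 reads in Sham.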
